A study of Homo sapiens with 9 samples.

Results

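The EGR1 peaks at the loci of WNT1, FRAT1, FRAT2, DKK1 and AXIN2, 5 genes of Wnt signalling, were examined in immortalised human fibroblasts of the line BJ-hTERT-BRAF-V600E. A peak was a member when its summit lay in 1 of 4 hg19 windows: chromosome 12, 49.35 to 49.40 Mb (WNT1), chromosome 10, 99.06 to 99.12 Mb (FRAT1 and FRAT2), chromosome 10, 54.05 to 54.10 Mb (DKK1), and chromosome 17, 63.50 to 63.58 Mb (AXIN2). The windows held 15 of 28625 listed peaks, 9 of 16285 in induced cells and 6 of 12340 in induced cells with clobetasol. The loci were chosen by gene name and position with the peaks and pileups of both lists known, so the values at these loci are descriptions. A test run over all shared peaks is given only as background, and supports nothing about these loci. The DKK1 window held no peak in either list.

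EGR1 was immunoprecipitated with its bound DNA from 9 libraries in 3 groups of 3. Proliferating cells received ethanol and DMSO for 24 h. Induced cells received 1000 ng/mL doxycycline, which switches on the BRAF V600E oncoprotein, and DMSO for 24 h. The third group received the same doxycycline together with 2 nM of the glucocorticoid clobetasol for 24 h, and its titles also name DMSO. All groups carry hTERT and the inducible BRAF V600E construct in 1 cell line, and whether replicate libraries were grown as separate cultures is not stated. The authors pooled the libraries of a group, so each value below rests on 1 pool and has no replicate spread. In the labels, proliferating replicates 2 and 3 share a sample name, so the control pool may not hold 3 distinct samples. Peak lists hold no expression values, so the fibroblast label was not checked against markers.

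Wnt proteins are secreted ligands that bind Frizzled and LRP receptors at the cell surface. Without a ligand, AXIN proteins hold a destruction complex in which GSK3 phosphorylates beta-catenin and marks it for degradation. With a ligand, the complex is inactivated, beta-catenin enters the nucleus and binds TCF and LEF factors at target genes. WNT1 is a ligand of this canonical pathway. FRAT1 and FRAT2 bind GSK3 and displace it from AXIN. AXIN2 is a scaffold of the destruction complex and a widely used transcriptional target of the pathway. DKK1 is a secreted inhibitor that binds the LRP receptors. In fibroblasts, canonical Wnt signalling is known for promoting proliferation and matrix production. EGR1 is a zinc finger factor that is induced by MAP kinase signalling and binds GC-rich DNA.

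Promoter sequences are shown for the loci where the peaks were strongest, to let a reader see how GC-rich they are and how alike the FRAT pair is. They are not shown as sites of EGR1 binding. They are the 250 bases before the annotated start in RefSeq, build GRCh38.p14, 5′ to 3′ on the strand of the gene. The promoter table matched 4 of the 5 genes, and AXIN2 was not matched. GRCh38.p14 positions cannot be compared directly with the hg19 positions of the peaks, and they were not converted. No hg19 annotation was used, so whether a peak lies on one of these promoters, in an exon or in an intron is not stated. Capitals in WNT1 mark matches to GCGNGGGNG, a form of the EGR1 site with any base where N stands, and capitals in FRAT1 and FRAT2 mark the part of their longest identical stretch that lies before the start.
WNT1, chr12:48978072-48978321, plus strand: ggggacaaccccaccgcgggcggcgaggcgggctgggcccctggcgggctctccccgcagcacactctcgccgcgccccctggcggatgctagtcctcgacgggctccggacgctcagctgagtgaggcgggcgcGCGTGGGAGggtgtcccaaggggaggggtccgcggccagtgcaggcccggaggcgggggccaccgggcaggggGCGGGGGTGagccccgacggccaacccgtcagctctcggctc
FRAT1, chr10:97319021-97319270, plus strand: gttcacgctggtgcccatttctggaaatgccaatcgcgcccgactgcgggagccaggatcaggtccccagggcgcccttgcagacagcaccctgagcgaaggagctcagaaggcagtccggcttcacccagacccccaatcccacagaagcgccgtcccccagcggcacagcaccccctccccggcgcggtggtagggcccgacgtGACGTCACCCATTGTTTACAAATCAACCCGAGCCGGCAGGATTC
FRAT2, chr10:97334730-97334979, minus strand: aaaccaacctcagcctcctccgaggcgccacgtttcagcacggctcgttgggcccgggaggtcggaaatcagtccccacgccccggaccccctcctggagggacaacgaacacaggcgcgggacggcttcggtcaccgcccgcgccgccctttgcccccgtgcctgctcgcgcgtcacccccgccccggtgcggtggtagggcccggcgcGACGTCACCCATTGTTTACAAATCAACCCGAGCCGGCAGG

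The stretch shared by FRAT1 and FRAT2 was 51 bases long. It began 44 bases before the start of FRAT1 and 40 bases before that of FRAT2, and ran past both starts. It was longer than the 43 bases read from each end of a fragment, and the promoters had 9 words of 43 bases in common. A single read inside it could have been placed at either gene. Its part in the peaks was not tested. Of all other promoters in the table, 1 held such a word, that of LOC105378448, a transcript next to FRAT2.

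Neither GCGTGGGCG nor GCGGGGGCG, the EGR1 sites searched on both strands, was found in the 300 bases from 250 before to 50 after the start of WNT1, FRAT1, FRAT2 or DKK1. These letters were in 5.77% of all 35116 promoters (0.795% held the first and 5.07% the second, and a promoter may hold both). The looser form GCGNGGGNG, which includes both, was in 18.8% of all promoters. WNT1 held it 115 and 42 bases before the start, as GCGTGGGAG and GCGGGGGTG, and FRAT2 held 2 matches on the opposite strand, 114 and 75 bases before the start. FRAT1 and DKK1 held none. The looser form was added to the search after the sequences were seen. Of 65 Wnt pathway genes in a list of ligands, receptors, transducers, destruction complex, effectors, inhibitors and enhancers, 47 were in the table with 58 promoters, and 9 of these (15.5%) held 1 of the 2 exact sites. They belonged to the ligand genes WNT2, WNT3A, WNT6, WNT7A and WNT9B, to DVL1, which relays the signal from the receptor, to AXIN1, to TCF7L2, a nuclear partner of beta-catenin, and to RSPO4, a secreted enhancer of the pathway. A match is a description and shows no binding, and peaks at these other genes were not placed without an hg19 annotation.

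The peaks are given by 3 quantities. The fold is the authors' ratio of the treated pileup to the control level from proliferating cells at the summit, each plus 1. A pileup is the number of sequenced fragments that cover the summit, recovered here from the fold and its p. A scaled level is a pileup set to the depth of the induced pool: clobetasol fragments were divided by 1.21, the depth of that pool relative to the induced pool, and proliferating fragments were multiplied by 0.552. The 95% intervals are exact binomial ones and cover counting error only. Since a summit is where the treated pileup was highest, the pileup there is raised relative to that of the control. Over the whole lists, the median fold was 3.64 in induced cells and 3.16 with clobetasol, and the median summit held 64 and 75 fragments.

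The WNT1 window held the most peaks and the largest fold of the 4. Its 4 induced peaks are called WNT1 a to d in order along the chromosome. On the GRCh38.p14 gene order, WNT1 lies between WNT10B, another Wnt ligand gene, and DDN, so a peak in the window need not belong to WNT1. WNT1 c (chromosome 12, 49371113 to 49372181) had a fold of 6.27, higher than 96.8% of induced peaks, with a −log10 q of 50.04. It held 32 proliferating fragments, a scaled level of 17.6, and 116 induced fragments, a ratio of 6.57 (95% interval 4.41 to 10.0).

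WNT1 a (chromosome 12, 49350196 to 49351602) was the widest of the 9 induced peaks at 1407 bp and had the highest −log10 q, 54.0. Its summit held 58 proliferating fragments, a scaled level of 32.0, and 160 induced fragments, a ratio of 5.00 (3.68 to 6.88). The summit of WNT1 a was 1.44 kb inside the edge of the window, and the next induced peak outside that edge lay 104 kb away. WNT1 b (chromosome 12, 49366367 to 49366699) was a small peak on a low control level, with 18 proliferating and 50 induced fragments and a ratio of 5.04 (2.89 to 9.17). WNT1 d (chromosome 12, 49391858 to 49392271) held 34 proliferating and 66 induced fragments, a ratio of 3.52 (2.29 to 5.49). In this window the 4 intervals overlapped each other. Overlap of separate intervals does not settle whether 2 ratios differ, and the order of the ratios was not tested.

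The FRAT window held 3 induced peaks, FRAT1/FRAT2 a to c. FRAT1 and FRAT2 are next to each other in the GRCh38.p14 gene order, between ARHGAP19 and RRP12. Peak a (chromosome 10, 99078590 to 99078842) had the most fragments of the 9, 169, but also the highest proliferating count, 88, a scaled level of 48.5. The ratio was therefore only 3.48 (2.68 to 4.56). Peak b (chromosome 10, 99079140 to 99079609) had its summit 503 bp further on and was the weakest of the 9, with 46 fragments, a fold of 2.68 and a −log10 q of 6.17. Its control level was a scaled 16.5 and not a whole number of fragments, so no interval is given. Peak c (chromosome 10, 99094152 to 99094982) had its summit 15516 bp beyond that of peak b, with 33 proliferating and 90 induced fragments and a ratio of 4.94 (3.28 to 7.61). Peak c had fewer fragments than peak a and a larger ratio, with overlapping intervals.

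The AXIN2 window, on a stretch where AXIN2 lies between RGS9 and CEP112 in the same gene order, held a pair of induced peaks with summits 596 bp apart. AXIN2 a (chromosome 17, 63556575 to 63557325) held 102 induced fragments, and AXIN2 b (chromosome 17, 63557671 to 63558041) held 98. Both had 53 proliferating fragments, a scaled level of 29.2. The ratios were 3.49 (2.48 to 4.96) and 3.35 (2.38 to 4.78), with overlapping intervals, and whether they differ was not tested. Their folds, 3.41 and 3.27, were below the median of the list.

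**Figure D1:**
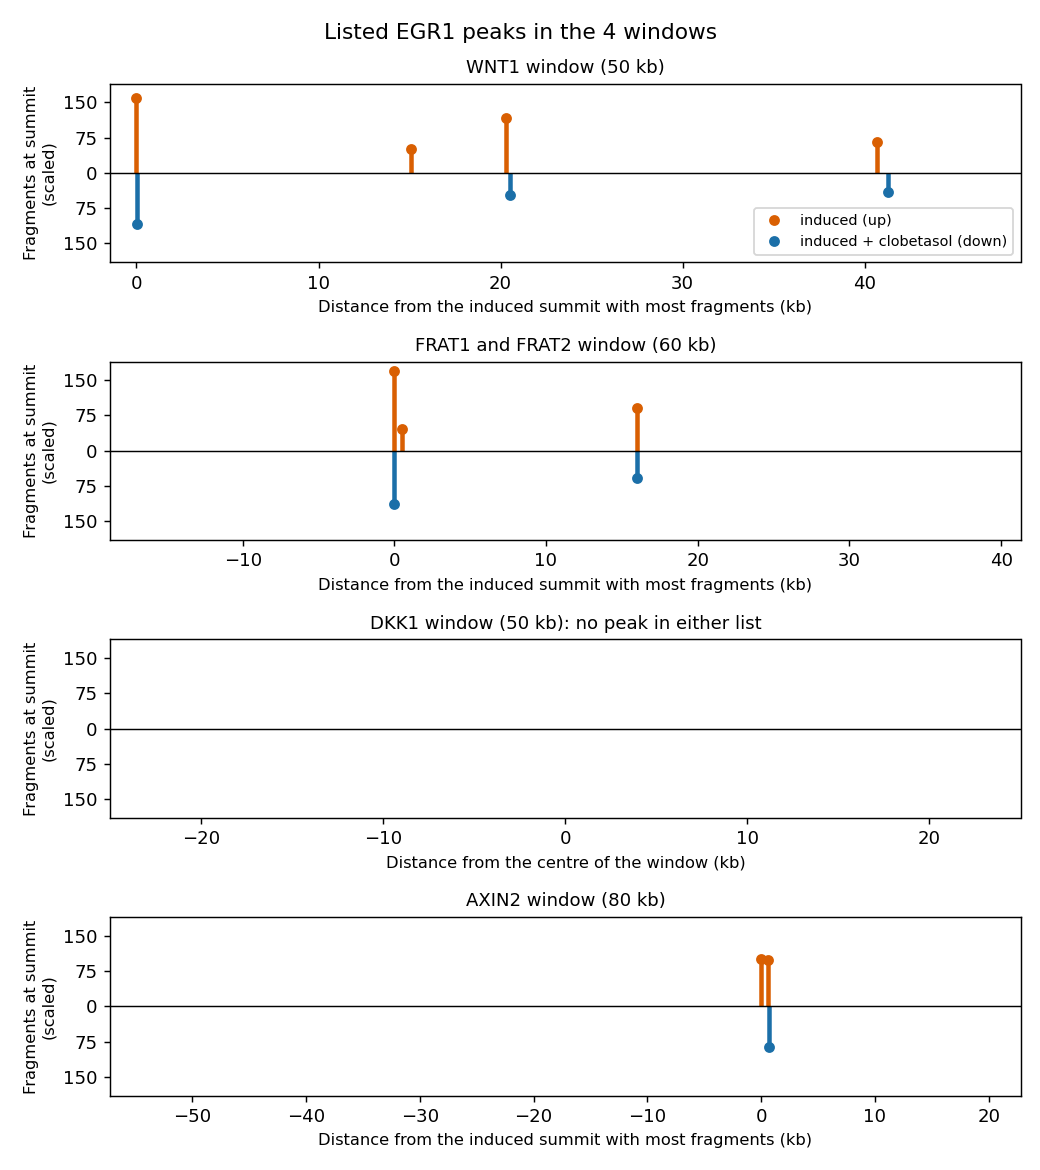
Each panel is 1 window, with the distance in kb on the horizontal axis from the induced summit with most fragments (for DKK1, from the centre of the window) and the fragments at each summit, scaled to the depth of the induced pool, on the vertical axis. Orange stems point up for the 9 induced peaks and blue stems point down for the 6 clobetasol peaks. The WNT1 peaks are spread over the window, the FRAT peaks form 2 places, the AXIN2 pair stands alone, and the DKK1 panel is empty.

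**Figure D2:**
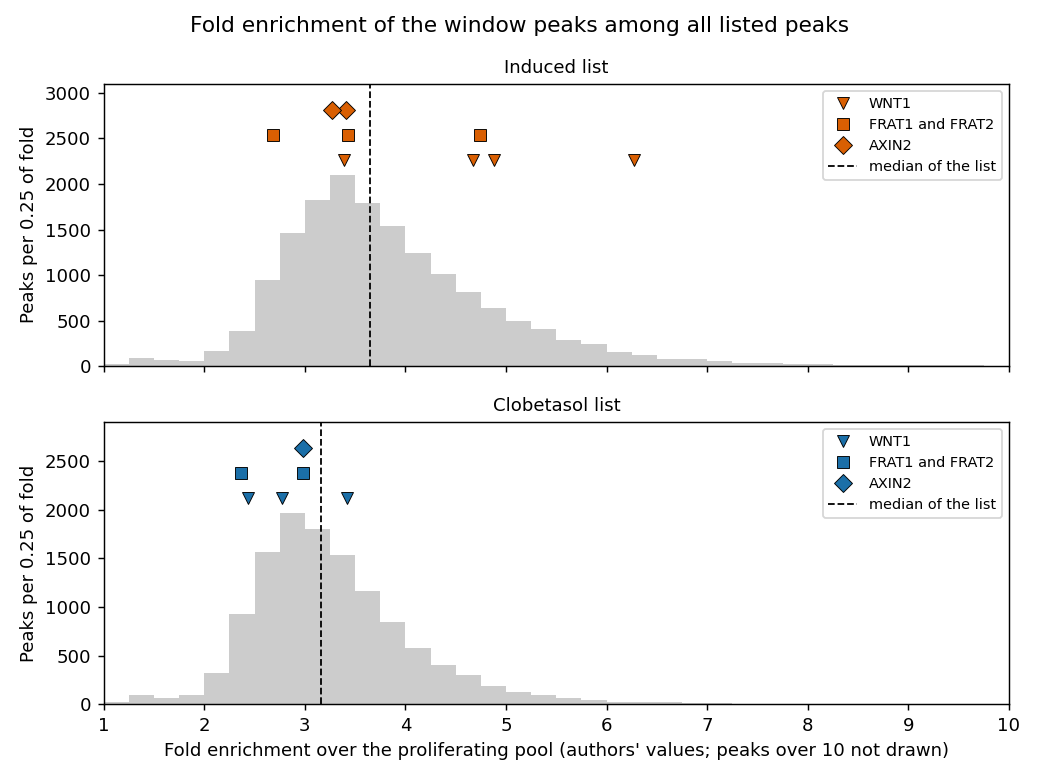
Grey bars count all listed peaks per 0.25 of the authors' fold, for induced cells (top) and for clobetasol (bottom), and symbols show the window peaks. Of the 9 induced window peaks, 4 lie above the list's median of 3.64, and of the 6 clobetasol window peaks, 1 lies above its median of 3.16.

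DKK1, whose neighbours among protein-coding genes by start are CSTF2T and MBL2, had no listed peak in its window. The nearest induced peak was 159 kb beyond the window (chromosome 10, 54258474 to 54258864, fold 3.88, 40 fragments), and a clobetasol peak with 41 fragments was at the same place. On the other side, the nearest induced peak was 457 kb away. The authors' peak numbers ascend along each chromosome, and many are missing: 68.9% of numbers up to the highest, 52393, in induced cells, and 53.7% of those up to 26677 with clobetasol. What a missing number stands for is not recorded in these files. Between the listed peaks on either side of DKK1, the induced list skips 8 numbers and the clobetasol list 6, over 665 kb. If these were calls left out of the lists, some lay in that stretch, and whether one lay in the window is not known. Just outside the WNT1 window, 12.6 kb beyond its far edge, lay an induced peak with 54 fragments and a clobetasol peak with 67. The nearest induced peaks outside the FRAT and AXIN2 windows were 65.8 kb and 137 kb from an edge, and the nearest clobetasol peaks 85.9 kb and 311 kb. On their other sides, the nearest peaks were 467 kb (induced) and 468 kb (clobetasol) from the FRAT window and 608 kb from the AXIN2 window in both lists. Before the WNT1 window, the nearest clobetasol peak was 138 kb away.

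With clobetasol, WNT1 c had the lowest ratio of the 5 window pairs that have a value in both pools. The induced peaks without a clobetasol peak have no ratio and may lie lower or higher. It held 116 induced fragments and 57 clobetasol fragments in the deeper pool, a scaled level of 46.9, between the scaled level of the proliferating pool (17.6 at the induced summit) and that of the induced pool. The ratio of the scaled clobetasol level to the induced level was 0.404 (0.289 to 0.560). Of 10429 shared induced peaks, those overlapping a clobetasol peak by at least 1 bp, only 2 had a lower ratio, and this site was known for that value when the loci were chosen. The fold with clobetasol was 2.44, and 9.83% of that list had a lower one. The summits lay 246 bp apart inside 1 broad peak, farther than the median of 10 bp over all shared peaks. Of all shared peaks, 96.1% had summits within 100 bp and 98.0% within the distance at WNT1 c. The ratio at WNT1 c therefore compares the highest point of each pool and not 1 position, unlike nearly all pairs it was ranked against. The proliferating counts at the 2 summits, 32 and 34, were close.

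WNT1 a went with a ratio nearer to that of the whole list. It held 160 induced and 133 clobetasol fragments, a scaled level of 109, and the ratio was 0.684 (0.539 to 0.867). FRAT1/FRAT2 a held 169 and 139, a ratio of 0.677 (0.537 to 0.852). FRAT1/FRAT2 c held 90 and 72, a ratio of 0.658 (0.476 to 0.908). The median ratio over all shared peaks was 0.799 (interquartile range 0.707 to 0.911), inside each of these 3 intervals. The 3 ratios themselves lay below the interquartile range. Of all shared peaks, 19.6% had a lower ratio than WNT1 a, 18.2% than FRAT1/FRAT2 a and 14.4% than FRAT1/FRAT2 c. FRAT1/FRAT2 a and c had ratios of 0.677 and 0.658, on 88 and 33 proliferating fragments. Whether these ratios differ, or go with the control level, was not tested.

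AXIN2 b held 98 induced and 104 clobetasol fragments, a scaled level of 85.6. The ratio was 0.873 (0.656 to 1.16), so the pools did not differ beyond counting error there. The interval also includes the median of all shared peaks.

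**Figure D3:**
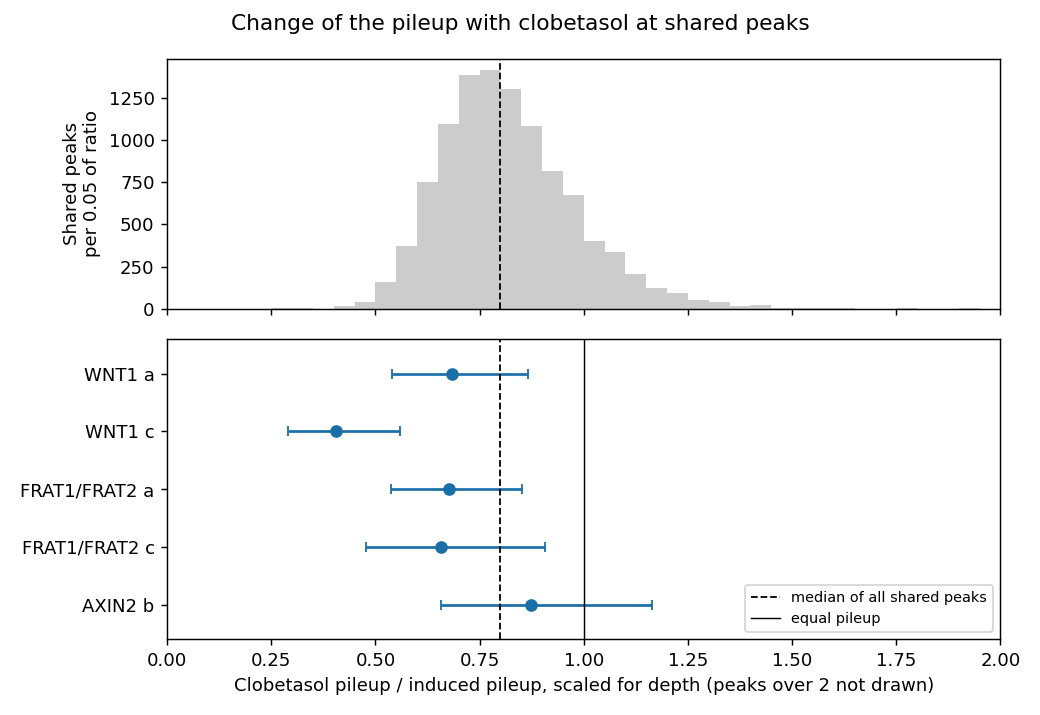
The upper panel counts all 10429 shared peaks by the ratio of the depth-scaled clobetasol pileup to the induced pileup, and the lower panel gives that ratio with its 95% exact binomial interval for the 5 pairs of window peaks with the nearest summits. The dashed line is the median of all shared peaks, 0.799, and only the interval of WNT1 c lies wholly below it. WNT1 c was known for its low ratio when the loci were chosen, so its place below the line supports nothing. Its summits in the 2 pools lie 246 bp apart, so its ratio does not compare 1 position.

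In all, 6 of the 9 induced window peaks overlapped a clobetasol peak, against 64.0% of all induced peaks, and 5 of the 6 clobetasol window peaks overlapped an induced one, against 86.4%. Both lists share the proliferating control, so the overlap is not read as a shared effect. By strength, 94.5% of induced peaks with a −log10 q of at least 20 had an overlap, 63.3% of those from 10 to 20, and 28.7% of those below 10. Among the induced window peaks without an overlap, the −log10 q was 22.0 at AXIN2 a, 16.2 at WNT1 b and 13.9 at WNT1 d. Among all shared peaks, 22.6% were called lower with clobetasol (exact binomial test, two-sided, adjusted by Benjamini-Hochberg), and 39.4% of those with a −log10 q of at least 20. Of the 5 window pairs, 4 were among the calls, WNT1 a, WNT1 c and both FRAT sites, each with a −log10 q over 20. Nothing is read from this count, since the loci were chosen with these values known.

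**Figure D4:**
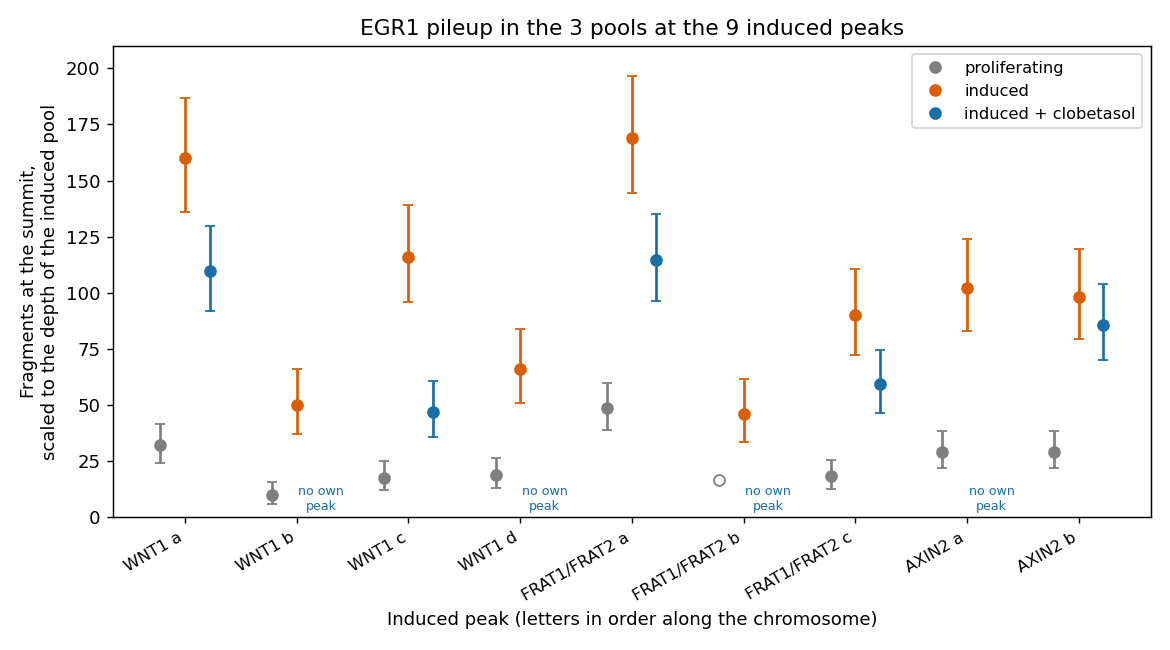
Fragments at the summit, scaled to the depth of the induced pool, are shown for the 9 induced peaks in the proliferating (grey), induced (orange) and induced plus clobetasol (blue) pools, with exact 95% Poisson intervals for counting error. Each site was listed for an induced level above the proliferating one, so that order is fixed by the peak calling. The interval of WNT1 c with clobetasol, 35.5 to 60.8, lies below its induced interval, 95.9 to 139. The open circle is a control level that is not a whole count, and 4 induced peaks have no clobetasol peak of their own.

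Of these 4, WNT1 b, WNT1 d and AXIN2 a overlapped no clobetasol peak, and FRAT1/FRAT2 b was covered by the clobetasol peak of its neighbour. That clobetasol peak (chromosome 10, 99078588 to 99079319) was 732 bp wide and spanned both induced FRAT peaks a and b, with its summit 4 bp from that of a and 499 bp from that of b. It gives no value for b.

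WNT1 b had 50 induced fragments, which corresponds to 60.7 at the depth of the clobetasol pool. At its proliferating level, about 36 fragments would have reached the lowest −log10 p of the clobetasol list, which would be a ratio of 0.593. WNT1 d had 66 fragments, or 80.2 at that depth, and about 55 would have been needed, which would be a ratio of 0.686. The authors' clobetasol peak numbers run without a gap over the WNT1 window, so no number is missing at WNT1 b or d. AXIN2 a had 102 fragments, or 124 at that depth, against about 74 needed, which would be a ratio of 0.597. The clobetasol list skips 2 numbers between AXIN2 b and the listed peak before it, 369 kb away, and whether these were calls, and where, is not known. Its near twin AXIN2 b was listed with clobetasol at a ratio of 0.873. The clobetasol pileup at these 3 sites is not in the lists, so no ratio is given for them and the difference within the AXIN2 pair was not tested.

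A single clobetasol peak, at chromosome 12, 49392624 to 49392893, overlapped no induced peak. Its summit lay 602 bp from that of WNT1 d, on the far side. It held 26 proliferating and 50 clobetasol fragments, a scaled level of 41.2 and a ratio to the proliferating pool of 2.87 (1.75 to 4.80). At an equal level, the induced pool would have held 41.2 fragments there, just above the 40 needed for a listed peak. The induced list lacks 1 number between WNT1 d and the next listed peak, and whether it was a call at this site is not known.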

How the data were processed

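EGR1 ChIP-seq libraries from 3 groups of 3 were compared as 2 pooled peak lists. Per the submitters' processing notes, which name tools without settings, the build was hg19, and MACS2 2.1.1.20160309, BWA, SAMtools 1.3.1, cutadapt 1.15, FastQC 0.11.5 and bcl2fastq were used. Settings of MACS2: not given in the sources used here. By the names of the peaks, the authors pooled replicates 1, 2 and 3 of each treated group and used the pooled proliferating libraries as control. The deposited values are the fold (a ratio), the −log10 p and −log10 q at the summit and a score, which is 10 times the −log10 q without its decimals. The lowest −log10 q was 5.00 in both lists.

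The treated pileup and the control level were solved from the fold, which adds 1 to each, and the Poisson −log10 p. The pileup was within 0.05 of a whole number for 99.5% of peaks in each list. Control levels fell on multiples of 0.552 and 0.670, within 0.05 of a multiple for 79.1% and 77.9% of levels below 20, and the ratio of these steps, 1.21, was taken as the relative depth. Total depth per library is unknown. Peaks overlapping by at least 1 bp were shared, and an induced peak was paired with the clobetasol peak of nearest summit. The exact binomial test was run on all 10429 shared peaks (adjusted p threshold 0.05). Recovery and test were checked on simulated data with known answers, in which every control level lay on a multiple of the step. Control levels off the multiples, which the lists hold, were not part of that check. Named were all peaks in the windows, the nearest outside them, and the protein-coding genes next to the members. Python 3.11.15, numpy 2.4.6, pandas 2.3.3 and scipy 1.17.1 were used. The members, lists and tests were chosen with earlier results of these data known. The motif GCGNGGGNG was added after the sequences were seen.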

Additional observations from a re-analysis of the deposited data

How the results depend on the processing

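No paired analysis was possible because the lists hold 1 pool per group, and for the same reason no replicate could be left out. Of 25 alternative values, 23 stayed within 1.5 times the count or within the counting interval. At a −log10 q of at least 10, 8 induced and 4 clobetasol peaks were left in the windows. With windows widened by 25 kb there were 10 and 7. Overlap of at least 50% of both peaks, or summits within 100 bp, each left 4 of the 6 overlapping induced peaks. Without depth scaling, the ratio at AXIN2 b was 1.06 in place of 0.873, within its interval. As excess over the control level, the ratio at WNT1 c was 0.286 in place of 0.404, because the control level is subtracted from both pools. WNT1 c has no value with summits within 100 bp. The 2 exact EGR1 sites were in 0 member promoters and the looser form in 2. Pileups of about 50 fragments leave wide intervals, and the order of the weaker sites was not tested.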
